A study of Mus musculus with 12 samples.

Results

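Expression of 9 genes of NF-kB feedback was described in CT26 cells, a mouse colon carcinoma cell line. The genes were TNFAIP3, TNIP1, CYLD, TRAF1, TRAF2, BIRC2, BIRC3, TNFAIP2 and ZC3H12A. They were found by symbol among 23636 symbols of a table of gene TPM, transcript levels per gene length scaled to a fixed total. All 9 were in the table, and all 9 were among the 11878 genes tested, those that averaged 0.2 TPM or more over the libraries. The table had 4 groups of 3 libraries each. CT26 cells were left untreated (No treatment) or were given recombinant CX3CL1 (2 µg/ml), IFN-γ (100 ng/ml), or both (CX3CL1+IFN-γ) for 8 hours, with doses and time from the study's methods and legends. No group carried a genetic change. The text of the study also names TNF-α beside IFN-γ for this experiment, while the labels of the libraries name IFN-γ alone, and the labels are followed here. The labels call the 3 libraries of a group biological replicates and do not say whether they came from separate cultures, so p-values measure the spread between these samples, which may be technical in part.

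NF-kB is a family of transcription factors held inactive in the cytoplasm by inhibitor proteins. Receptors of the TNF family and Toll-like receptors release it by building ubiquitin chains on adaptor proteins such as TRAFs and cIAPs, which recruit the IKK kinase. NF-kB then turns on genes that restrain it: A20 (TNFAIP3) and its partner ABIN-1 (TNIP1) act on ubiquitin chains, and Regnase-1 (ZC3H12A) cuts the messenger RNAs of inflammatory genes. CX3CL1 is a chemokine that signals through the G-protein coupled receptor CX3CR1, and IFN-γ signals through JAK kinases.

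The libraries carry no read depth, because TPM add up to 1000000 in each, so counting error could not be given and precision rests on the 3 replicates. Between replicates the correlation of log2(TPM + 1) across genes ran from 0.984 to 0.996, and CX3CL1 replicate 2 was the least alike within its group. Of 6 IFN-γ target genes, 5 were tested and all 5 were called higher with IFN-γ, while CIITA was at most 0.0259 TPM. GBP2 of this list was also called higher with CX3CL1 alone. Of 8 leukocyte markers only CD14 had a mean of at least 1 TPM in any group, PTPRC was at most 0.0441 TPM and CD3E was listed at 0 in every library. The summed leukocyte list ran from 24.6 to 30.8 TPM without treatment and from 28.5 to 49.4 TPM with CX3CL1. It ran from 27.7 to 37.5 TPM with IFN-γ and from 31.8 to 43.2 TPM with both. Nearly all of this sum was CD14, with group means of 26.9, 36.3, 32.5 and 36.6 TPM in that order. The part of this list in the results was not tested. Of 8 colon epithelial and CT26 markers 3 were tested. EPCAM was listed at 0 in all libraries, and CDH1, KRT8, CDX2 and VIL1 had group means under 1 TPM. Other epithelial markers were present. KRT18 had group means of 45.3, 29.6, 27.5 and 21.5 TPM (no treatment, CX3CL1, IFN-γ, both). KRT20 had 12.8, 8.41, 11.7 and 7.24 TPM in the same order. The mesenchymal marker VIM was at 1684 TPM or more. The summed list ran from 3722 to 4891 TPM without treatment and from 3114 to 3911 TPM with CX3CL1. It ran from 2464 to 3590 TPM with IFN-γ and from 1717 to 3163 TPM with both. Nearly all of this sum was VIM, with group means of 4174, 3400, 2899 and 2360 TPM in that order, so it does not measure epithelial genes. KRT18 was called lower with IFN-γ and with both, and VIM with both. The part of this list in the results was not tested either. CX3CR1 itself was between 0 and 0.154 TPM and did not pass the filter. That is transcript alone. By flow cytometry with its CX3CR1 antibody, the study reported high expression of the protein on CT26 cells. The study also reported that this antibody reduced effects of CX3CL1 on these cells. The difference between transcript and protein was not tested here.

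Of the 9 genes, 7 were called higher in at least the comparison of both ligands with no treatment. ZC3H12A, the RNase gene, rose with CX3CL1 whether or not IFN-γ was present. TRAF1, an adaptor gene, rose with either ligand alone. TNFAIP3 and TNIP1 of the A20 arm, TRAF2, BIRC3 and TNFAIP2 were called higher with IFN-γ alone and with both ligands, each against no treatment. No interaction of the ligands was called for any of the 9, and of the 9 only ZC3H12A was called different between IFN-γ and CX3CL1, so these lists of calls do not show that the other genes differ in pattern. CYLD and BIRC2 were not called in any comparison. Of the 9, 0 were called lower than in untreated cells, against 0.168% of all genes tested for CX3CL1, 1.94% for IFN-γ and 3.72% for both. Calls are at an adjusted p under 0.05 from limma, described with the first comparison.

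**Figure D1:**
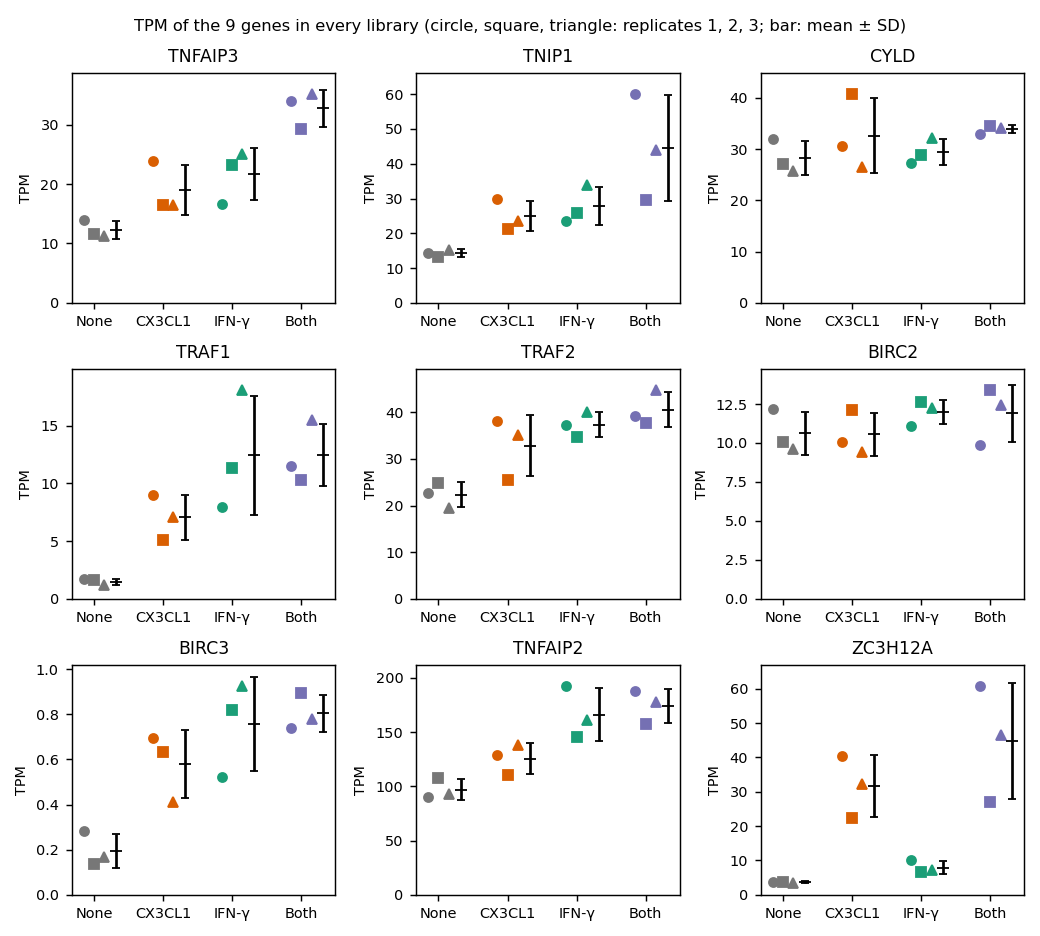
TPM of each of the 9 genes (y axis, starting at 0) in the 3 libraries of each group (None is No treatment, Both is CX3CL1+IFN-γ), with the mean and SD beside the points. ZC3H12A stays between 6.54 and 10.02 TPM with IFN-γ and between 22.3 and 60.8 TPM in the libraries given CX3CL1, while CYLD and BIRC2 overlap between most groups.

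Promoter sequences are shown because NF-kB binds a known 10-base motif. With both ligands 7 of the 9 members were called higher than without treatment, while CYLD and BIRC2 were not called. RefSeq promoter windows (GRCm38.p6, 250 bases before to 50 bases after each start) were found for all 9 genes, 11 windows in all since TNFAIP3 and BIRC2 have 2 starts each. The κB consensus was searched on both strands. A match was held by 4 of the 11 windows, against 8.46% of all 32817 promoter windows of that length. Those windows belong to 4 of the 9 genes: TNFAIP3, TNIP1, CYLD and TNFAIP2. TNFAIP3 held 2 matches at its first start, from position -125 to -116 and from -12 to -3 counted from the start. TNIP1 held 3 matches that overlap each other between positions -58 and -47. The interferon-γ activated sequence motif TTCNNNGAA, known as GAS, occurred in 1 of the 11 windows, that of TNIP1, against 8.29% of all windows. The interferon-stimulated response element core, a pair of GAAA blocks with 2 bases between them, occurred in 0 of the 11, against 3.43%. Both were searched on both strands, and neither overlapped a κB match. A match is a string of letters and not a measured binding site, and a missing match says only that the letters are not in the window.

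The following sequences run 5′ to 3′ on the strand of the gene, with κB consensus matches in capitals. The 30-base windows around the matches of TNFAIP3 lie at chr10:19015516-19015545 and chr10:19015403-19015432, minus strand. The window of TNFAIP2 lies at chr12:111442627-111442656, plus strand. By the GENCODE positions given for the genes below, these windows lie inside TNFAIP3 and TNFAIP2. For them, upstream and start therefore refer to the RefSeq start alone. The 250 bases before the start are given for TNIP1 (chr11:54962941-54963190, minus strand), for CYLD, which held a match and was not called (chr8:88696778-88697027, plus strand), and for TRAF1 (chr2:34961773-34962022, minus strand) and ZC3H12A (chr4:125127882-125128131, minus strand), which had the largest changes and no match.
TNFAIP3 upstream match: gactcacgcgGGGACACCCCggggcgggac
TNFAIP3 match near the start: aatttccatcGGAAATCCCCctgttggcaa
TNFAIP2 match: gactattttaGGAGGGCCCCtccagggtcg
TNIP1: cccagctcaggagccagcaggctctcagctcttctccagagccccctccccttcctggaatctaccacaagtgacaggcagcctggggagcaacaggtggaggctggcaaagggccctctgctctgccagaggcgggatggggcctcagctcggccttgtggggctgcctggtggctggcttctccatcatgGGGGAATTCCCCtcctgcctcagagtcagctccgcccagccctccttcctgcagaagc
CYLD: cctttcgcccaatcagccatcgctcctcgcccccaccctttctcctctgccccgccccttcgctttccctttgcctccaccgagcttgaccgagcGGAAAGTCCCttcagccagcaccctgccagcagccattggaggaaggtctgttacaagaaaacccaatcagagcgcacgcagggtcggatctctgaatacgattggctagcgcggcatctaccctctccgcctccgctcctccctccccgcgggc
TRAF1: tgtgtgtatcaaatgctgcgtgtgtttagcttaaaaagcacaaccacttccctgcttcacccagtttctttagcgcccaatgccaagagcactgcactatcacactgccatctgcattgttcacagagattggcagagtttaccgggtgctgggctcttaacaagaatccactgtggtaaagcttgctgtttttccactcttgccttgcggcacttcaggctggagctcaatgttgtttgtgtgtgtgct
ZC3H12A: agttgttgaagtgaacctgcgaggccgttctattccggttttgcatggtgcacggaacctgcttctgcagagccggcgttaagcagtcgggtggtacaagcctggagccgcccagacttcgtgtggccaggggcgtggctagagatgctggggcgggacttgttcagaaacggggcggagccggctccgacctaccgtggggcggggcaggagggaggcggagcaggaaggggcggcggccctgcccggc

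**Figure D2:**
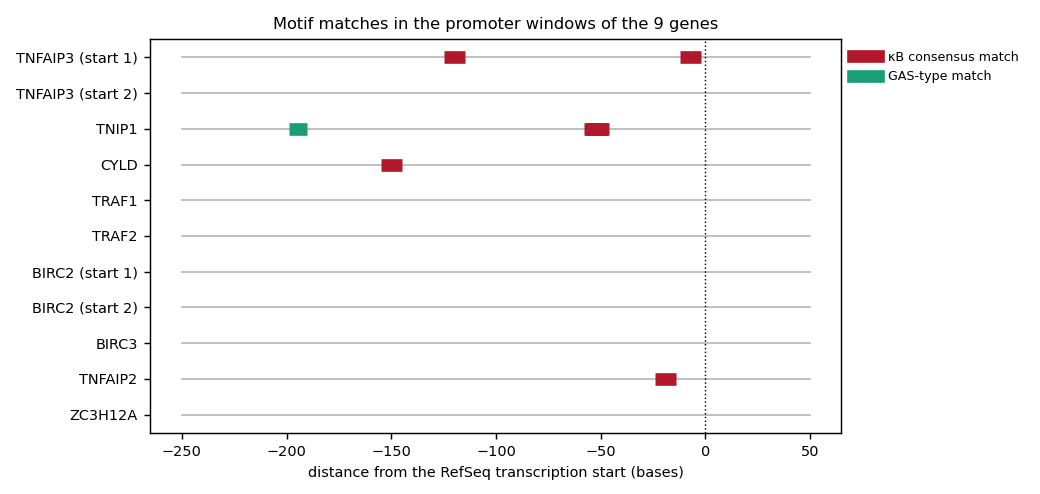
Positions of κB consensus matches and of GAS-type matches in the 11 promoter windows, with distance from the RefSeq start in bases on the x axis. TNFAIP3, TNIP1, CYLD and TNFAIP2 each show at least 1 κB match, and the windows of TRAF1, TRAF2, BIRC2, BIRC3 and ZC3H12A show none.

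The first comparison asks what CX3CL1 alone did to these genes. Of the 9, 2 were called higher with CX3CL1 than without treatment, ZC3H12A and TRAF1, against 1.78% of all genes tested. The 9 genes were chosen with earlier results of these libraries known. Their counts in any comparison are therefore not independent evidence. A gene was called at an adjusted p under 0.05 from limma on log2(TPM + 1), with Benjamini-Hochberg adjustment over the 11878 genes. For 7 of the 9 the lowest value with CX3CL1 exceeded the highest untreated value, against 5.5% of the genes tested. The median log2 fold change of the 9 was 0.52, against -0.02 over all genes tested. The smallest p of an exact permutation test with 3 libraries a side is 0.1. Calls therefore depend on the model of limma. It takes the spread as normal, pools it over the 4 groups and shares its estimate between genes.

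ZC3H12A (chromosome 4, 125118423 to 125127840, protein coding; positions of genes follow GENCODE vM21, build GRCm38) encodes Regnase-1, an endoribonuclease. Untreated cells had 3.83, 3.71 and 3.29 TPM, and CX3CL1 gave 40.4, 22.3 and 32.2 TPM. With IFN-γ it was at 10.02, 6.54 and 7.08 TPM, and with both ligands at 60.8, 27.2 and 46.4 TPM. Libraries given CX3CL1 were thus all above libraries not given it, and replicate 2 was the lowest in both CX3CL1 groups. The mean TPM of ZC3H12A rose 8.76-fold with CX3CL1, and by 2.79 on the log2 scale (standard error 0.27, adjusted p = 0.000138, limma). In cells given IFN-γ, the addition of CX3CL1 raised the mean 5.68-fold, and the fitted value was 2.31 on the log2 scale (standard error 0.27, adjusted p = 0.00128, limma). These calls were kept under every alternative that was run, with the log2 fold change between 2.59 and 3.06 without IFN-γ and between 2.06 and 2.63 with it.

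IFN-γ alone gave a smaller difference for ZC3H12A, whose mean was 7.88 ± 1.87 TPM (SD, n = 3) with IFN-γ and 3.61 ± 0.283 TPM (SD, n = 3) without treatment. The 3 IFN-γ libraries were above the 3 untreated libraries, but 0.93 on the log2 scale, with a standard error of 0.27, missed the threshold (adjusted p = 0.0528, limma). With the replicate number as a block, it was called (adjusted p = 0.00483, limma), as it was with a pseudocount of 0.1, with a filter at a mean of 1 TPM and when the other groups were left out of the fit. The order of the group means was no treatment, IFN-γ, CX3CL1 and both. Of the neighbours in this order, IFN-γ and CX3CL1 differed beyond their spread: ZC3H12A was lower with IFN-γ than with CX3CL1 (log2 fold change -1.86, standard error 0.27, adjusted p = 0.00199, limma). This call was kept under every alternative run. CX3CL1 and both did not (log2 fold change 0.46, 95% confidence interval -0.12 to 1.03, adjusted p = 0.417).

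TRAF1 (chromosome 2, 34941750 to 34961772, protein coding) encodes an adaptor of TNF family receptors that lacks the RING domain of other TRAFs and pairs with TRAF2. It was at 1.67, 1.59 and 1.18 TPM without treatment and at 9.03, 5.12 and 7.09 TPM with CX3CL1. IFN-γ gave 7.96, 11.3 and 18.1 TPM, and both ligands gave 11.5, 10.3 and 15.5 TPM. The untreated libraries were all below 2 TPM and the treated libraries all above 5 TPM, while IFN-γ and CX3CL1 overlapped. TRAF1 rose 4.77-fold in mean TPM with CX3CL1 (log2 fold change 1.68, standard error 0.25, adjusted p = 0.00274, limma) and 8.39-fold with IFN-γ (log2 fold change 2.37, standard error 0.25, adjusted p = 5.2e-05, limma). With both ligands it was 8.38-fold above untreated cells. Both single-ligand calls and the call with both ligands were kept under every alternative run.

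Added to IFN-γ, CX3CL1 left TRAF1 at 12.4 ± 2.69 TPM (SD, n = 3), against 12.4 ± 5.15 TPM (SD, n = 3) with IFN-γ alone. The log2 fold change was 0.05 (95% confidence interval -0.50 to 0.60, adjusted p = 0.993, limma). Its sign turned without IFN-γ replicate 1 (-0.21) and without CX3CL1+IFN-γ replicate 3 (-0.11). The CX3CL1 effect on TRAF1 with IFN-γ was smaller than the effect without it by 1.63 on the log2 scale (95% confidence interval of the difference -2.40 to -0.85). This interaction had an unadjusted p of 0.000597 and was not called over all genes tested (adjusted p = 0.228, limma), with an adjusted p from 0.0839 to 0.731 over the alternatives. On the group means, TRAF1 was lowest without treatment and next with CX3CL1, and the neighbours above that, CX3CL1 and both (adjusted p = 0.129) and both and IFN-γ, did not differ beyond their spread.

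TRAF2 (chromosome 2, 25517982 to 25546940, protein coding) encodes the adaptor that brings cIAPs to TNF receptors. It was at 22.7, 24.9 and 19.5 TPM without treatment, at 38.1, 25.5 and 35.0 TPM with CX3CL1, at 37.4, 34.7 and 40.0 TPM with IFN-γ, and at 39.3, 37.6 and 44.8 TPM with both. CX3CL1 replicate 2 was close to the highest untreated library and the other treated libraries were all above 34 TPM. TRAF2 rose with IFN-γ (log2 fold change 0.72, standard error 0.14, adjusted p = 0.0075, limma). For CX3CL1 alone the log2 fold change of 0.52 was not called (standard error 0.14, adjusted p = 0.118, limma), and without CX3CL1 replicate 2 it was 0.69 and called (adjusted p = 0.0104). The addition of CX3CL1 to IFN-γ gave a log2 fold change of 0.11 (95% confidence interval -0.20 to 0.43). TRAF2 also stood at higher TPM than TRAF1 in every library.

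**Figure D3:**
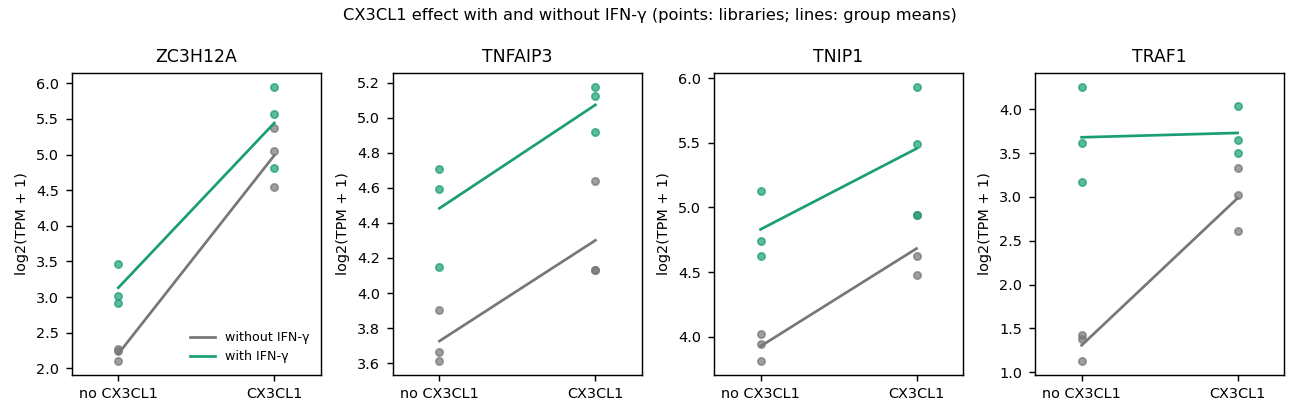
log2(TPM + 1) (y axis) without and with CX3CL1 (x axis), separately for cells without IFN-γ (grey) and with IFN-γ (green); points are libraries and lines join the group means. CX3CL1 was called for ZC3H12A on both lines and not called for TNFAIP3 or TNIP1 on either (adjusted p from 0.145 to 0.720, limma). For TRAF1 the log2 fold change with CX3CL1 is 1.68 without IFN-γ and 0.05 with it, an interaction that was not called.

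TNFAIP3 (chromosome 10, 19000910 to 19015657, protein coding) encodes A20, a ubiquitin-editing enzyme that shuts off signaling to NF-kB. It was at 14.0, 11.7 and 11.2 TPM without treatment and at 23.9, 16.5 and 16.5 TPM with CX3CL1. IFN-γ gave 16.7, 23.2 and 25.1 TPM, and both ligands gave 33.9, 29.2 and 35.2 TPM. Each treated library was above every untreated library, and the libraries with both ligands were above all others. With both ligands TNFAIP3 was 2.67-fold above untreated cells in mean TPM (log2 fold change 1.35, standard error 0.17, adjusted p = 0.000151, limma), and this call was kept under every alternative run. IFN-γ alone raised it 1.76-fold (log2 fold change 0.76, standard error 0.17, adjusted p = 0.0161, limma), a call that was lost without No treatment replicate 2 (adjusted p = 0.0588) or 3 (0.0806) and without IFN-γ replicate 2 (0.0614) or 3 (0.0871).

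For CX3CL1 the log2 fold change of TNFAIP3 was 0.57 (standard error 0.17, adjusted p = 0.172, limma) without IFN-γ and 0.59 (standard error 0.17, adjusted p = 0.415, limma) with it. Neither was called, although the libraries did not overlap in either comparison, and the difference between them was 0.02 (95% confidence interval -0.51 to 0.54). No neighbours in the order no treatment, CX3CL1, IFN-γ and both were called different for TNFAIP3.

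TNIP1 (chromosome 11, 54910785 to 54962917, protein coding) encodes ABIN-1, which binds ubiquitin chains and A20. It was at 14.4, 13.0 and 15.2 TPM without treatment, at 29.8, 21.3 and 23.6 TPM with CX3CL1, and at 23.7, 25.7 and 33.9 TPM with IFN-γ. With both ligands it was uneven, at 60.0, 29.7 and 44.1 TPM, and replicate 2 of this group lay within the range of the single ligands. TNIP1 was 3.13-fold above untreated cells with both ligands (log2 fold change 1.53, standard error 0.22, adjusted p = 0.000363, limma), a call kept under every alternative run. It rose 1.95-fold with IFN-γ (log2 fold change 0.90, standard error 0.22, adjusted p = 0.0223, limma). That call was lost without the filter on low TPM (adjusted p = 0.0574), without No treatment replicate 1, 2 or 3 (0.0558, 0.0800 and 0.0610) and without IFN-γ replicate 3 (0.111). For CX3CL1 alone the fitted difference, 0.76 on the log2 scale with a standard error of 0.22, missed the threshold (adjusted p = 0.145, limma), and it was called when the other groups were left out of the fit (adjusted p = 0.0471). Its group means had the same order as those of TNFAIP3, and no neighbours in it were called different.

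CYLD (chromosome 8, 88697028 to 88751945, protein coding) encodes a deubiquitinase that, like A20, takes apart chains built by TRAFs. It was at 31.9, 27.1 and 25.8 TPM without treatment, at 30.5, 40.7 and 26.5 TPM with CX3CL1, at 27.3, 28.8 and 32.2 TPM with IFN-γ, and at 33.0, 34.4 and 34.2 TPM with both. CX3CL1 replicate 2 was the highest of all, and most groups overlapped. Its log2 fold changes were 0.18 with CX3CL1 (95% confidence interval -0.12 to 0.49), 0.06 with IFN-γ (-0.25 to 0.37) and 0.26 with both (-0.05 to 0.56), and none was called. Under quantile normalization the value with IFN-γ was -0.03.

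BIRC2 (chromosome 9, 7818227 to 7837064) and BIRC3 (chromosome 9, 7848699 to 7873186), both protein coding, encode cIAP1 and cIAP2, ubiquitin ligases that TRAF2 recruits. They lie 11634 bases apart with no annotated gene between them. BIRC2 was at 12.2, 10.04 and 9.61 TPM without treatment and at 10.1, 12.1 and 9.44 TPM with CX3CL1. IFN-γ gave 11.1, 12.6 and 12.2 TPM, and both ligands gave 9.86, 13.4 and 12.5 TPM. The groups overlapped in all comparisons, and the log2 fold change against untreated cells was -0.01 with CX3CL1 (95% confidence interval -0.31 to 0.29), 0.17 with IFN-γ (-0.13 to 0.46) and 0.15 with both (-0.15 to 0.45). After median-ratio scaling the value with CX3CL1 was 0.02.

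BIRC3 was far lower in TPM than BIRC2, at 0.281, 0.137 and 0.168 TPM without treatment and 0.697, 0.631 and 0.411 TPM with CX3CL1. It was at 0.524, 0.817 and 0.925 TPM with IFN-γ and at 0.738, 0.895 and 0.778 TPM with both. Treated libraries were all above the untreated ones, and none reached 1 TPM. The untreated mean of 0.195 TPM lay under the filter of 0.2 TPM, so BIRC3 passed the filter only through the treated groups. Ratios to that mean rest on values near the floor. BIRC3 rose 3.87-fold in mean TPM with IFN-γ and 4.12-fold with both. In log2(TPM + 1), where low genes appear to change less than their ratio, the differences were 0.55 (standard error 0.12, adjusted p = 0.00995, limma) and 0.59 (standard error 0.12, adjusted p = 0.00377, limma). The call with IFN-γ was lost without IFN-γ replicate 3 (adjusted p = 0.0576). With CX3CL1 the mean was 2.97-fold higher, which missed the threshold (0.40 on the log2 scale, standard error 0.12, adjusted p = 0.147, limma). Of the 50-base stretches in GENCODE transcripts of BIRC3, 7.38% also occur in a transcript of another gene, a share that includes the 1.28% found in BIRC2. This share does not measure the error in the TPM of BIRC3. What shared stretches did to that value was not tested. The other 8 members shared between 0% and 1.52% of their stretches.

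TNFAIP2 (chromosome 12, 111442469 to 111455018, protein coding) was first known as a gene induced by TNF and encodes a protein of cell protrusions; it is a target of NF-kB rather than an inhibitor of it. It had the highest TPM of the 9 in every library. It was at 90.2, 107.9 and 92.5 TPM without treatment, at 128.6, 110.1 and 138.0 TPM with CX3CL1, at 192.6, 145.2 and 160.9 TPM with IFN-γ, and at 188.3, 157.4 and 177.8 TPM with both. CX3CL1 replicate 2 was just above the highest untreated library, and all IFN-γ libraries were above all libraries without IFN-γ. TNFAIP2 rose 1.72-fold with IFN-γ (log2 fold change 0.77, standard error 0.13, adjusted p = 0.0019, limma) and 1.80-fold with both ligands (log2 fold change 0.84, standard error 0.13, adjusted p = 0.000566, limma). Both calls were kept under every alternative run. With CX3CL1 alone the log2 fold change of 0.37 was not called (standard error 0.13, adjusted p = 0.285, limma). An antisense gene on the other strand, Gm40578, overlaps 6.3% of its exon bases, and whether the authors counted by strand is not given in the sources used here.

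Across the 9 genes, 6 were called higher with IFN-γ than without treatment, against 5.91% of all genes tested: TRAF1, TNFAIP2, TRAF2, BIRC3, TNFAIP3 and TNIP1. For 7 the IFN-γ libraries were all above the untreated ones, against 20.6%. The median log2 fold change was 0.76, against 0.03 over all genes tested. Without IFN-γ replicate 3, the library with the highest value for 6 of the 9 genes in its group, 3 were called. With both ligands 7 were called higher than in untreated cells, against 8.21%, and for 8 the libraries did not overlap and were higher, against 18.6%. The median was 0.84, against 0.02. These comparisons share the untreated libraries with the first one. With CX3CL1 added to IFN-γ, 1 of the 9 was called higher (ZC3H12A), against 0.345%. For 3, ZC3H12A, TNFAIP3 and CYLD, the libraries did not overlap and were higher, against 8.54%, and the median was 0.11, against -0.003.

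With IFN-γ added to CX3CL1, 1 of the 9 was called higher, TNFAIP3 (log2 fold change 0.77, standard error 0.17, adjusted p = 0.0218, limma), against 3.76% of all genes tested. For 4 the libraries did not overlap and were higher, against 14%, and the median was 0.46, against 0.04. TNFAIP3 lost this call without the filter on low TPM (adjusted p = 0.0531), without CX3CL1 replicate 2 (0.0588) or 3 (0.0853) and without CX3CL1+IFN-γ replicate 1 (0.0738) or 3 (0.102), which left 0 called. With the replicate number as a block 3 were called, TNFAIP3, TNIP1 (adjusted p = 0.0212) and TNFAIP2 (adjusted p = 0.0280), and without CX3CL1+IFN-γ replicate 2 the number was also 3. In the direct comparison of IFN-γ with CX3CL1, 1 of the 9 was called lower with IFN-γ, ZC3H12A, against 1.06%, and 0 were called higher, against 3.52%. For 1, TNFAIP2, the IFN-γ libraries were all above the CX3CL1 libraries, against 18.3%. For the interaction, limma called 0 of the 9 and 0% of all genes tested. At an unadjusted p under 0.05 in the main fit there were 2 of the 9, TRAF1 and BIRC3, against 2.3% of all genes tested.

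**Figure D4:**
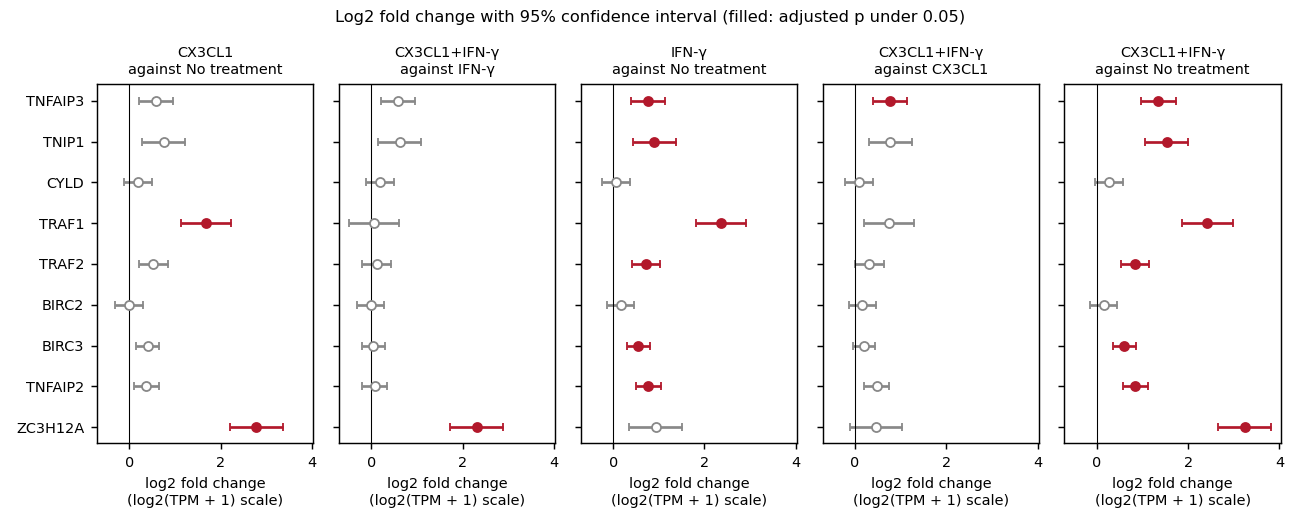
Log2 fold change on the log2(TPM + 1) scale (x axis) with its 95% confidence interval for each of the 9 genes in 5 comparisons, filled where called. ZC3H12A and TRAF1 are filled for CX3CL1 alone, 6 genes for IFN-γ alone, 7 for both ligands against no treatment, and only ZC3H12A for CX3CL1 added to IFN-γ.

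Other genes of the pathway were counted in lists, each to be read against the shares of all genes tested given with the first list and the medians over all genes tested of -0.02 for CX3CL1, 0.03 for IFN-γ and 0.02 for both. Of 11 genes for NF-kB subunits and IkB proteins, all tested, 8 were called higher with CX3CL1, 4 with IFN-γ and 10 with both against no treatment, where 1.78%, 5.91% and 8.21% of all genes tested were called higher, with medians of 1.09, 0.66 and 1.36 on the log2 scale, and 0 were called lower. The list was drawn up with earlier results of these libraries known, so its direction is not independent evidence. BCL3, an IkB-like coactivator, rose from 1.18 to 18.7 TPM in the group means with both ligands (log2 fold change 3.08, adjusted p = 2.2e-05, limma), and IFN-γ added to CX3CL1 raised it by 1.48 on the log2 scale (adjusted p = 0.0167, limma). NFKBIE, the gene of the inhibitor IkB epsilon, rose from 5.18 to 16.8 TPM with CX3CL1 (adjusted p = 0.00616, limma) and to 23.5 TPM with IFN-γ (adjusted p = 0.000292, limma) in the group means. NFKBIZ and NFKBIA, another coactivator and the main inhibitor, rose with both ligands by 3.23 and 2.90 (adjusted p = 2.3e-06 and 2.6e-05, limma).

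Of 12 IKK and upstream kinase genes, all tested, 2 were called higher and 1 lower with CX3CL1 and 0 were called with IFN-γ, with a median of 0.12 in each case. With both, 2 were called higher, with a median of 0.21. MAP3K14, the kinase gene of the noncanonical pathway, fell by 0.71 on the log2 scale with CX3CL1 (adjusted p = 0.00746, limma), from 6.83 to 3.75 TPM. Its protein, which TRAFs and cIAPs keep low, was not measured in these libraries. MAP3K14 transcript was higher with IFN-γ than with CX3CL1 (log2 fold change 0.85, adjusted p = 0.00237, limma). IKBKE and MAP3K8, both kinase genes, rose with CX3CL1 by log2 fold changes of 1.05 and 1.27 (adjusted p = 0.0361 and 0.0026, limma).

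Of 10 other TRAF family genes, 9 were tested, with 0 called for CX3CL1, 1 higher for IFN-γ, and 2 higher and 1 lower for both. Their medians were 0.07, 0.09 and 0.27. TRAFD1, a zinc-finger gene related to TRAFs, rose with IFN-γ from 11.6 to 60.3 TPM (log2 fold change 2.17, adjusted p = 0.00181, limma). With both ligands TRAF3IP2 was higher and TRAF3IP1 lower than without treatment (log2 fold changes 0.67 and -0.29, adjusted p = 0.0231 and 0.0467, limma).

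Of 12 genes for A20 partners, linear ubiquitin and deubiquitinases, 11 were tested, with 0 called for CX3CL1, 2 higher for IFN-γ and 3 higher for both, and medians of 0.05, 0.15 and 0.12. RNF31, the catalytic ligase of linear ubiquitin chains, rose with IFN-γ from 16.5 to 38.7 TPM (log2 fold change 1.17, adjusted p = 7.2e-05, limma) and was higher with IFN-γ than with CX3CL1 (log2 fold change 0.78, adjusted p = 0.00548). SPATA2, which links CYLD to that ligase, rose with IFN-γ by 0.43 (adjusted p = 0.03, limma). RNF11 and TNIP2, both A20 partners, rose with both ligands by 0.56 and 0.33 (adjusted p = 0.0403 and 0.0493, limma).

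Of 11 genes for TNF, its receptor family and adaptors, 6 were tested, with 0 called for either ligand alone (medians 0.07 and 0.13) and 2 higher for both (median 0.22). TNFRSF1B and TNFRSF1A, the TNF receptors, rose with both ligands by log2 fold changes of 1.04 and 0.51 (adjusted p = 0.00215 and 0.00566, limma). TNF was listed at 0 in 10 of the 12 libraries and at 0.0349 TPM at most. Of 8 mRNA-decay genes 6 were tested, with 1 called higher for CX3CL1 (median 0.27), 0 called for IFN-γ (median -0.05) and 3 higher for both (median 0.32). ZFP36L1, which like Regnase-1 shortens the life of messenger RNAs, rose with CX3CL1 from 30.5 to 48.2 TPM (log2 fold change 0.65, adjusted p = 0.0357, limma). ZFP36 and ZC3H12C, a relative of ZC3H12A, rose with both ligands by 0.92 and 0.41 (adjusted p = 0.0375 and 0.0382, limma).

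Genes with the most similar pattern were sought for the 4 members with the widest range of group means, as the smallest root mean square difference of centred log2(TPM + 1) over the 12 libraries among 10746 genes. All 12 points share 4 treatments, so genes that respond to them come out alike. For ZC3H12A, whose own spread around its mean was 1.36, these were NFKBIZ (difference 0.21), CEBPD (0.44) and CCL20 (0.55). NFKBIZ averaged 6.35 TPM without treatment, 45.6 TPM with CX3CL1, 12.1 TPM with IFN-γ and 70.1 TPM with both, the order of ZC3H12A. For TRAF1, with a spread of 1.02, they were GM7609 (0.26), HELZ2 (0.26) and OASL1 (0.26). HELZ2 averaged 20.4, 59.8, 85.8 and 101.1 TPM in the same order of groups. For TNIP1, with a spread of 0.60, they were NRP2 (0.20), GSAP (0.21) and MT2 (0.22), and for TNFAIP3, with a spread of 0.52, GSDMD (0.17), GSAP (0.20) and BCAR3 (0.21).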

How the data were processed

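CT26 libraries were strand-specific mRNA preparations. Per the submitters' processing notes and the methods, the authors aligned reads to mm10 with STAR 2.7.3a and tested gene counts with DESeq2 1.22.1. The authors deposited TPM that add up to 1000000 per library; how counts became TPM and the gene annotation are not given in the sources used here. Counts were not analysed here.

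The TPM were tested in R 4.3.3 with limma 3.58.1 (lmFit, then eBayes allowing the variance to follow expression). Values were log2(TPM + 1), so the pseudocount was 1. Genes averaging 0.2 TPM or more entered 1 fit of the 12 libraries, and p-values were adjusted by Benjamini-Hochberg in each comparison separately, and called under 0.05. The script was first tested on simulated data. Tables, promoter searches and figures were made in Python 3.11.15 with pandas 2.3.3 and matplotlib 3.10.9. The members and lists were chosen with earlier results of these data known. Named genes are the 9 members, up to 4 genes of each list called in the most comparisons, and the 3 genes most alike to each of 4 members. The lists are NF-kB subunits and IkB proteins, IKK and upstream kinases, other TRAF genes, A20 partners, TNF receptors, mRNA-decay genes, IFN-γ targets, CX3CR1 with CX3CL1, leukocyte markers and CT26 markers. Transcript of CX3CL1 itself was at most 0.0178 TPM. The comparison of IFN-γ with CX3CL1 was added after the other comparisons were fixed. Whole reads cannot be recovered from TPM, so depth is unknown.

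Deviations from the group mean were correlated between libraries of the same replicate number for IFN-γ and CX3CL1+IFN-γ (correlations across genes 0.630, 0.635 and 0.649), no treatment and IFN-γ (0.429, 0.460 and 0.220), CX3CL1 and CX3CL1+IFN-γ (0.351, 0.353 and 0.428), and CX3CL1 and IFN-γ (0.584, 0.361 and 0.226). They did not in each pair for no treatment with CX3CL1 (0.387, 0.00472 and 0.301) or with CX3CL1+IFN-γ (0.312, 0.447 and 0.0324). The pairing comes from these correlations alone, as the labels do not say what a number shares. The fit was repeated after a smaller pseudocount (0.1), after dropping the filter or raising it to 1 TPM, after scaling by median ratios or by quantiles, within the 2 groups of each comparison, without the variance trend, with replicate number blocked, and without each library in turn.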

Additional observations from a re-analysis of the deposited data

How the results depend on the processing

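Over the 7 comparisons, of 18 member results called, 14 kept their call under every alternative run, 4 lost it under some and 0 changed sign. The numbers of members called that moved by over 1.5 times were those of IFN-γ against no treatment, 6, which ran from 3 to 6 when 1 library was left out, and of CX3CL1+IFN-γ against CX3CL1, 1, which was 0 without the filter, 3 with the replicate block and from 0 to 3 when 1 library was left out. The replicate block also called ZC3H12A for IFN-γ against no treatment and TNIP1 for CX3CL1 against no treatment (adjusted p = 0.0486, limma). Between no treatment and CX3CL1 the correlations by replicate number were 0.387, 0.00472 and 0.301, too uneven to say that the numbers pair these libraries. The block called no member for the interaction, and it changed no other call. The alternatives for IFN-γ against CX3CL1 were chosen after seeing the data. BIRC3 could not be tested with a mean of at least 1 TPM.

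Signs turned only in results that were not called, and the cause was not tested. After median-ratio scaling the log2 fold change of BIRC2 with CX3CL1 was 0.020, and the interactions of TNFAIP3 and CYLD were -0.012 and -0.011; after quantile normalization CYLD with IFN-γ was -0.026. With 1 library left out, BIRC2 ran from -0.10 to 0.086 for CX3CL1 against no treatment, and CYLD from -0.0054 to 0.15 for IFN-γ against no treatment and from -0.058 to 0.24 for CX3CL1+IFN-γ against CX3CL1. For IFN-γ against CX3CL1, CYLD ran from -0.26 to 0.044. For CX3CL1+IFN-γ against IFN-γ, TNFAIP2 ran from -0.016 to 0.19, TRAF1 from -0.21 to 0.34, BIRC2 from -0.10 to 0.10 and BIRC3 from -0.053 to 0.12. The interaction ran from -0.15 to 0.18 for TNFAIP3, -0.37 to 0.13 for TNIP1, -0.12 to 0.18 for CYLD and -0.10 to 0.11 for BIRC2. TPM carry no depth, so limits from counting, which bear most on BIRC3, could not be set.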
